A study of Mus musculus with 6 samples.

Results

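The MS4A genes encode small proteins that cross the membrane several times, and 9 of them that are known from mouse myeloid cells are described here: Ms4a4a, Ms4a4b, Ms4a4c, Ms4a6b, Ms4a6c, Ms4a6d, Ms4a7, Ms4a8a and Ms4a14. They were taken by gene symbol from a table of estimated read counts for 21847 genes, in which 7 of the 9 had a row. The expression of Ms4a4a and Ms4a14 was not analysed here. The rows used run in order of Ensembl identifier and end before those of both genes, so the lack of a row says nothing of their expression. The 6 RNA-seq libraries came from mouse splenocytes depleted of T cells, which shared a fibronectin-coated dish for 3 days with human MSCs, the mesenchymal stromal cells of cord tissue. Qtracker, a label of fluorescent quantum dots, had been loaded into the MSCs, and CD11b positive cells were then sorted by it. The Qtracker positive group (3 libraries) is labelled as macrophages that engulfed MSCs, and the Qtracker negative group (3 libraries) as macrophages from the same kind of culture that did not. The series describes the replicates as paired, and a pair is the positive and the negative library with one number. The labels do not name the animals, so the p-values measure only the spread between these libraries.

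MS4A proteins sit in the plasma membrane or in vesicle membranes, often beside a receptor whose signalling they adjust. The founding members are Ms4a1, which encodes CD20 of B cells, and Ms4a2, the beta chain of the high-affinity IgE receptor of mast cells and basophils. Many of the others are expressed in macrophages and monocytes, and the family lies in one gene cluster in mouse and human.

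The sorted cells were checked against marker genes first. Summed over 10 macrophage markers, the level was 9414 to 12783 CPM (counts per library total, scaled so that libraries can be compared) in the Qtracker positive libraries, against 374 to 1986 CPM in the negative ones. Markers of some other cell types were more abundant in the negative libraries. The 12 neutrophil markers summed to 1325 to 1940 CPM in positive libraries against 3295 to 67602 CPM in negative ones, and 10 B cell markers to 227 to 288 CPM against 1760 to 5526 CPM. Among the neutrophil markers Mmp8 had 1004, 694 and 783 CPM in positive replicates 1, 2 and 3. In negative replicates 1, 2 and 3 it had 98.8, 887 and 948 CPM. Sums of T cell and of monocyte markers overlapped between the groups. Negative replicate 1 stood apart from the other two negative libraries: Itgam, which encodes the CD11b of the gate, had 2716, 1820 and 1836 CPM in positive replicates 1, 2 and 3, against 260, 2269 and 2211 CPM in negative replicates 1, 2 and 3. Whether the gate removed Ly6G or Ly6C positive cells differs between fields of the labels. Library totals were 33943090 to 55506993 counts, so counting error was small for every member except Ms4a8a in negative replicate 1.

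Of the 7 members, 2 were higher in Qtracker positive cells (Ms4a7 and Ms4a6b), 1 was lower (Ms4a4b), and 4 were not called by edgeR's quasi-likelihood test at an adjusted p under 0.05. Across all 14605 genes tested, 18.5% were called higher and 16.3% lower, so called genes were frequent in either direction. The median log2 fold change of the members, positive over negative, was 0.74, beside -0.01 over all genes tested. By pair, 4 members were higher in all 3 pairs (36.7% of all genes were), 2 were lower in all 3 pairs (36.0% of all genes) and 1, Ms4a8a, was mixed. The groups did not overlap for Ms4a7 and Ms4a6d, both higher (30.0% of all genes), nor for Ms4a4b and Ms4a4c, both lower (29.4% of all genes). In sorted bulk samples of this kind, fewer cells of a type and less RNA per cell cannot be told apart.

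**Figure D1:**
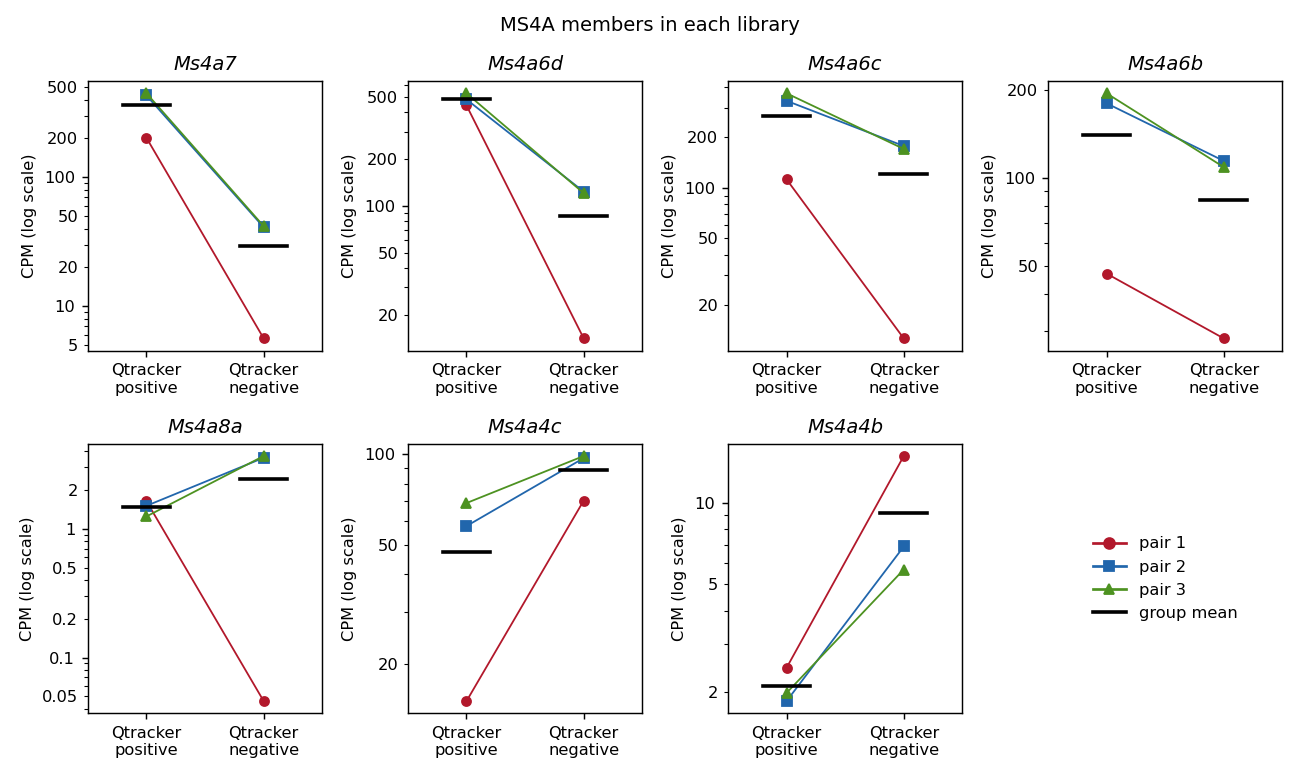
CPM of the 7 members (log scale, one panel each), with Qtracker positive libraries on the left and negative ones on the right; lines join numbered pairs and black bars are group means. Ms4a7 and Ms4a6d lie higher in every positive library, Ms4a4c and Ms4a4b lower, and the lines of Ms4a8a cross.

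Ms4a7 showed the strongest rise of the family. The gene, on the minus strand at chr19:11321039-11336146 (GRCm38), is expressed mainly in macrophages, including those of the brain borders. Its level was 202, 431 and 448 CPM in Qtracker positive replicates 1, 2 and 3, against 5.62, 40.9 and 41.7 CPM in negative replicates 1, 2 and 3. Every positive library was above every negative one, and replicate 1 was the lowest library of both groups. The mean was 360.5 ± 137 CPM in positive cells and 29.4 ± 20.6 CPM in negative cells (SD, n = 3 each). The fitted log2 fold change was 3.97 ± 0.50 (SE), which is 15.7-fold, with an adjusted p of 0.0157 by edgeR's quasi-likelihood test. That placed Ms4a7 at rank 172 of the 14605 genes, counted from the largest rise. The difference within pairs 1, 2 and 3 was 5.16, 3.40 and 3.42 on the log2 scale, so the rise was largest in the pair whose negative library was low in Itgam. Without replicate 1 the log2 fold change was 3.42, and it was still called. By edgeR the call was lost without replicate 2 (log2 4.29, adjusted p 0.0582), without replicate 3 (4.28, adjusted p 0.0657) and with replicates 2 and 3 summed (4.30, adjusted p 0.0619), and over 13 alternatives the adjusted p (edgeR, DESeq2 or limma) was 7.98e-16 to 0.0657. In fits added after the data were seen, Ms4a7 was called without replicate 2 and without replicate 3 by DESeq2 (adjusted p 1.54e-12 and 5.93e-12) and by limma-voom (adjusted p 0.0335 and 0.0388).

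Ms4a6d had the highest level of the family in Qtracker positive cells. In mouse macrophages its product pairs with the complement receptor VSIG4 in a complex that restrains the NLRP3 inflammasome. The gene lies on the minus strand at chr19:11586604-11604849. Its level was 443, 484 and 530 CPM in positive replicates 1, 2 and 3, against 14.1, 123 and 121 CPM in negative replicates 1, 2 and 3. The positive libraries were close to each other and all above the negative ones, among which replicate 1 was far below the others. The mean was 485 ± 43.5 CPM in positive cells and 86.1 ± 62.4 CPM in negative cells (SD, n = 3 each). The log2 fold change was 2.95 ± 0.80 (SE), which edgeR's quasi-likelihood test did not call (adjusted p 0.0584). Within pairs 1, 2 and 3 the difference was 4.97, 1.97 and 2.13 on the log2 scale. The value without replicate 1 was 2.06 and was called (adjusted p by edgeR 3.37e-06). That p-value rests on replicates 2 and 3 alone, which were close to each other in each group. DESeq2 (2.92), limma-voom (3.15), the authors' normalized values (2.93) and the fit without the pair term (2.50) also called it, and over 13 alternatives the adjusted p was 3.37e-06 to 0.120.

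Vsig4 was barely detected. It had 9, 2 and 1 counts in positive replicates 1, 2 and 3 and 9, 0 and 0 counts in negative replicates 1, 2 and 3, too few to be tested. Nlrp3, the inflammasome sensor, averaged 80.7 ± 11.3 CPM in positive cells and 44.4 ± 30.1 CPM in negative cells (SD, n = 3 each), with a log2 fold change of 1.18 ± 0.79 (SE) that was not called (adjusted p 0.299 by edgeR). Its pair differences were 3.26, 0.26 and 0.26, all upward and with most of the difference in pair 1, and its groups did not overlap. Without replicate 1 it was 0.28 and called (adjusted p 0.00227 by edgeR). The difference between Nlrp3 and Ms4a6d was not tested.

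Ms4a6b and Ms4a6c are neighbours on the plus strand, at chr19:11516512-11531256 and chr19:11469366-11482192. Ms4a6c is widely used as a marker of mouse monocytes, and Ms4a6b is also expressed in mouse T cells. The stretches of 250 bases before their RefSeq start sites (GRCm38.p6, plus strand, chr19:11518309-11518558 for Ms4a6b and chr19:11469118-11469367 for Ms4a6c) are shown because they share an unbroken run of 48 identical bases, in capitals.
Ms4a6b: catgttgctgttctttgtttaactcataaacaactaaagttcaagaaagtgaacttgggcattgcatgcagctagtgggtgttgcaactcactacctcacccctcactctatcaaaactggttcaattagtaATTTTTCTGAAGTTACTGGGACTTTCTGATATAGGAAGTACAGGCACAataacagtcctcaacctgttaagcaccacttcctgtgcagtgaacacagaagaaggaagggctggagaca
Ms4a6c: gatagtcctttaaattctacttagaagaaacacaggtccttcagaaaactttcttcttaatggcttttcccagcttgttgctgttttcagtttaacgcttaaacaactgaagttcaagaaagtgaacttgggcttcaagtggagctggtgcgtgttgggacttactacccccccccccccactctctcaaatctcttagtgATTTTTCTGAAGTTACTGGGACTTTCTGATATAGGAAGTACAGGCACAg
The run lies from -118 to -71 relative to the start site in Ms4a6b and from -49 to -2 in Ms4a6c, and in the best local alignment 82.2% of 180 columns were identical.

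The shared run holds the letters AGGAAGT, the core bound by PU.1, the myeloid ETS factor. Searched on both strands, Ms4a6b had 2 matches, at -86 and -43, and Ms4a6c had 1, at -17. No match overlapped another motif searched, no other member of the promoter table had one, and 7.69% of 32851 promoters of the same length did. TGANTCA, an AP-1 type motif that allows any base at N, was found in 6.75% of all promoters. Its matches among the members were TGATTCA in Ms4a7 (second start site, at -81), TGAGTCA in Ms4a8a (at -244) and TGACTCA in Ms4a14 (at -32). An interferon type motif, GAAA and again GAAA after any 2 bases (2.98% of promoters), and TTGCNNAA, a C/EBP type motif (9.56% of promoters), were in none of these windows of the 8 members that the table holds. Ms4a6d is not among them.

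Ms4a6c had 113, 331 and 367 CPM in Qtracker positive replicates 1, 2 and 3, against 12.6, 178 and 171 CPM in negative replicates 1, 2 and 3. It was higher in the positive library of each pair, but positive replicate 1 was below negative replicates 2 and 3, so the groups overlapped. The mean was 270.3 ± 138 CPM in positive cells and 120.4 ± 93.4 CPM in negative cells (SD, n = 3 each). The log2 fold change was 1.69 ± 0.57 (SE), with pair differences of 3.15, 0.90 and 1.10, and was not called (edgeR quasi-likelihood test, adjusted p 0.0893). It was called without replicate 1 (1.01, adjusted p 5.84e-05) and by DESeq2 (1.65, adjusted p 0.00601), in a range of 5.84e-05 to 0.358 over 13 alternatives. The counts of Ms4a6c carry a further limit. BE692007 overlaps it on the opposite strand and holds 51.0% of its 31-base words, and the strand setting of the counting is not stated, so reads of the pair may not be separated. Ms4a6c also shares 281 of its 2020 words with Ms4a6b, which are 6.19% of the words of Ms4a6b. A share of the reads of Ms4a6b and Ms4a6c was thus divided between them by estimation.

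Ms4a6b rose by a smaller but more even amount. It had 47.1, 180.0 and 195 CPM in positive replicates 1, 2 and 3, against 28.2, 114 and 109 CPM in negative replicates 1, 2 and 3. In both groups replicate 1 was lowest, by about the same factor, so the groups overlapped while the pairs did not disagree. The mean was 140.6 ± 81.3 CPM in positive cells and 83.8 ± 48.2 CPM in negative cells (SD, n = 3 each). The pair differences were 0.74, 0.66 and 0.84 on the log2 scale, and the fitted value was 0.74 ± 0.11 (SE), or 1.67-fold, with an adjusted p of 0.0205 by edgeR's quasi-likelihood test. The call rests on the pairing: without the replicate block the log2 fold change was 0.75 and the adjusted p 0.426. It was also lost with library totals alone as the scale (0.40, adjusted p 0.0944), without replicate 2 (0.79, adjusted p 0.155), without replicate 3 (0.70, adjusted p 0.207) and with replicates 2 and 3 summed (0.76, adjusted p 0.173). Without replicate 1 it was 0.76 and called, and over 13 alternatives the adjusted p was 0.000133 to 0.426. In the added fits without replicate 2 and without replicate 3, Ms4a6b was not called by DESeq2 (adjusted p 0.195 and 0.287). Nor was it called there by limma-voom (adjusted p 0.136 and 0.181).

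**Figure D2:**
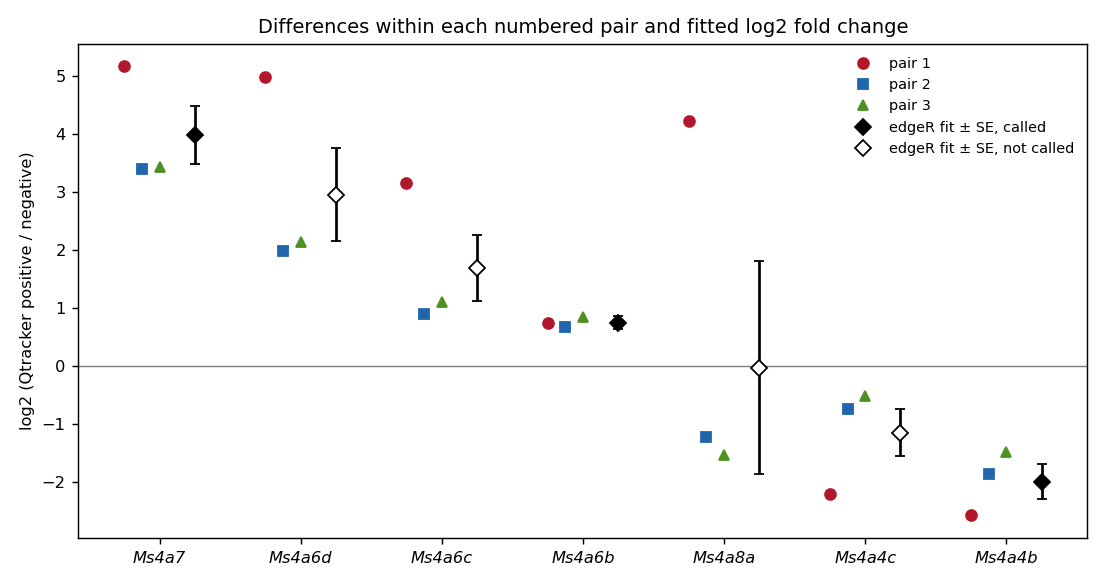
Log2 difference of CPM, Qtracker positive minus negative, within pair 1 (circles), pair 2 (squares) and pair 3 (triangles), and the log2 fold change fitted by edgeR with its SE (diamonds, filled where called). Pair 1 lies apart from pairs 2 and 3 for Ms4a7, Ms4a6d, Ms4a6c, Ms4a8a and Ms4a4c, while the values of Ms4a6b run from 0.66 to 0.84.

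Ms4a8a, known in mouse from alternatively activated macrophages, was the weakest member after Ms4a4b per length and gave opposite signs in different pairs. The gene lies on the minus strand at chr19:11067471-11081102. It had 62, 74 and 59 counts (1.64, 1.51 and 1.25 CPM) in Qtracker positive replicates 1, 2 and 3, against 2, 159 and 171 counts (0.0459, 3.56 and 3.67 CPM) in negative replicates 1, 2 and 3. The positive libraries lay close together, between the low negative replicate 1 and the high negative replicates 2 and 3. In pair 1 the ratio of positive to negative was 35.7, with an exact 95% counting interval of 9.49 to 302, whereas the differences of pairs 2 and 3 were -1.22 and -1.53 on the log2 scale. The fit gave -0.03 ± 1.83 (SE; edgeR quasi-likelihood test, adjusted p 0.992), a value between opposite ones. Without replicate 1 it was -1.39 and called (adjusted p 0.00298), and it was 1.26 without replicate 2 and 1.44 without replicate 3, neither called, in a range of adjusted p of 0.00298 to 0.998 over 13 alternatives.

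Ms4a4b and Ms4a4c lie side by side on the plus strand, at chr19:11443553-11467055 and chr19:11404770-11427246, and were lower in every Qtracker positive library than in any negative one. Ms4a4b is best known from mouse T cells, where its product binds the costimulatory receptor GITR, and Ms4a4c is found in mouse monocytes. The 250 bases before their RefSeq start sites (GRCm38.p6, plus strand, chr19:11443308-11443557 for Ms4a4b and chr19:11407411-11407660 for Ms4a4c) are shown as the other similar pair of promoters, with their longest shared run, of 20 bases, in capitals.
Ms4a4b: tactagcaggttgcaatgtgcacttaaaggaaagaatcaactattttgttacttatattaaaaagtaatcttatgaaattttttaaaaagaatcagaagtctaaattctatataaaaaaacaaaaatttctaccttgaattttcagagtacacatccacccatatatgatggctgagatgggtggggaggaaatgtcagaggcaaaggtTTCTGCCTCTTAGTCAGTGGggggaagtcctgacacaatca
Ms4a4c: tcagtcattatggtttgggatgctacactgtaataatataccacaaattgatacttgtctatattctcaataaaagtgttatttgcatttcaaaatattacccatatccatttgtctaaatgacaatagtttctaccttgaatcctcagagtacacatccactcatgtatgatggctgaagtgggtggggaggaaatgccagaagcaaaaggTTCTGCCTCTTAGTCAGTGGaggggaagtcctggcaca
Here 88.0% of 133 aligned columns were identical, and every other pair of member promoters in the table shared a run of at most 9 bases.

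Ms4a4b had 2.46, 1.85 and 1.99 CPM in Qtracker positive replicates 1, 2 and 3, against 14.9, 6.90 and 5.67 CPM in negative replicates 1, 2 and 3. All positive libraries were below all negative ones, and negative replicate 1 was the highest, the reverse of its place for the other 6 members. The mean was 2.10 ± 0.318 CPM in positive cells and 9.15 ± 5.0 CPM in negative cells (SD, n = 3 each). The log2 fold change was -2.0 ± 0.30 (SE), with an adjusted p of 0.0204 by edgeR's quasi-likelihood test and pair differences of -2.58, -1.87 and -1.49. It was -1.69 and called without replicate 1. The call was lost without replicate 2 (-2.05, adjusted p 0.0987), without replicate 3 (-2.24, adjusted p 0.0848) and with replicates 2 and 3 summed (-2.13, adjusted p 0.0919), in a range of 2.50e-07 to 0.0987 over 13 alternatives. In the same 2 added leave-outs it was called by DESeq2 (adjusted p 0.00856 and 0.00175) and not by limma-voom (adjusted p 0.0703 and 0.0583).

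Many, but not all, markers of lymphocytes were lower beside Ms4a4b. Of 10 T cell markers, 8 were lower in Qtracker positive cells, 1 (Cd28) was higher and 1 (Cd4, with pair differences of -2.75, 1.35 and 1.34 on the log2 scale) was not called. Their summed level was 42.2, 99.2 and 114 CPM in positive replicates 1, 2 and 3, against 154, 40.1 and 40.8 CPM in negative replicates 1, 2 and 3. The sum was thus lower in the positive library of pair 1 and higher in those of pairs 2 and 3. Cd28 made up most of it in positive replicates 1, 2 and 3, at 29.6, 84.9 and 99.3 CPM. In negative replicates 1, 2 and 3 it had 7.86, 7.97 and 7.09 CPM. The 8 markers called lower were each lower in all 3 pairs, as Ms4a4b was. Lck, the kinase of the T cell receptor, had 3.81, 3.24 and 3.00 CPM in positive replicates 1, 2 and 3, against 57.2, 15.5 and 16.2 CPM in negative replicates 1, 2 and 3, so it was highest in the same library as Ms4a4b. Of the 6 NK cell markers tested out of 8 listed, 5 were lower and 1, Nkg7, was not called (pair differences -1.93, 0.10 and -2.27), and the 8 summed to 1.46 to 6.60 CPM in positive libraries and 14.7 to 66.6 CPM in negative ones. Klre1 was at 0 in all positive libraries, but had only 3, 6 and 0 counts in negative replicates 1, 2 and 3. Tnfrsf18, which encodes GITR, averaged 1.20 ± 0.139 CPM in positive cells and 17.3 ± 9.84 CPM in negative cells (SD, n = 3 each), with a log2 fold change of -3.70 ± 0.35 (SE; adjusted p 0.0108 by edgeR). The part of such cells in the level of Ms4a4b was not tested.

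Ms4a4c had 15.1, 57.7 and 68.9 CPM in Qtracker positive replicates 1, 2 and 3, against 70.2, 97.2 and 98.8 CPM in negative replicates 1, 2 and 3. The groups did not overlap, though positive replicate 3 and negative replicate 1 were nearly equal. The mean was 47.2 ± 28.4 CPM in positive cells and 88.8 ± 16.1 CPM in negative cells (SD, n = 3 each). The log2 fold change was -1.15 ± 0.41 (SE), with pair differences of -2.21, -0.75 and -0.52, and was not called (edgeR quasi-likelihood test, adjusted p 0.102). Without replicate 1 it was -0.62 and called (adjusted p 0.000500), and DESeq2 called it at -1.19 (adjusted p 0.0172), in a range of 0.000500 to 0.217 over 13 alternatives. Ms4a4c shares 12.99% of its 31-base words with Ms4a4b, so a share of the reads of these genes was divided between them by estimation.

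Monocyte markers did not move as one list beside Ms4a4c and Ms4a6c. Of 12 monocyte markers, 1 (Treml4) was higher in Qtracker positive cells, 5 were lower and 6 were not called, and they summed to 1492 to 2396 CPM in positive libraries against 1081 to 6314 CPM in negative ones. Ly6c2, which encodes an antigen of classical monocytes, had 7.80, 74.9 and 82.3 CPM in positive replicates 1, 2 and 3, against 28.0, 330.2 and 329 CPM in negative replicates 1, 2 and 3. Ly6c2 was lowest in replicate 1 of either group, as Ms4a6c was. So were most of the list, namely Ccr2, Cx3cr1, Treml4, Plac8, F13a1, Chil3 and Ace, but Nr4a1, Spn, Fn1 and Vcan were not. Nr4a1 had 10.4, 9.98 and 9.21 CPM in positive replicates 1, 2 and 3, against 37.3, 18.1 and 17.6 CPM in negative replicates 1, 2 and 3, and so was highest in replicate 1 of either group. The part of monocytes in these levels was not tested.

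Replicate 1 differed from replicates 2 and 3 by a factor that depended on the member and the group. In Qtracker positive cells, the mean of replicates 2 and 3 was 4.19 times replicate 1 for Ms4a4c, 3.98 times for Ms4a6b and 3.10 times for Ms4a6c, but 1.14 times for Ms4a6d. In negative cells the same ratio was 13.8 for Ms4a6c, 8.68 for Ms4a6d and 7.35 for Ms4a7, but 1.40 for Ms4a4c and 0.422 for Ms4a4b. For Ms4a6b the ratio was 3.98 in positive cells and 3.95 in negative cells, and its pair differences were even. Pair medians of the 7 members followed, at 3.15, 0.66 and 0.84 on the log2 scale in pairs 1, 2 and 3, while those of all genes were -0.01, 0.01 and 0.00. Without replicate 1, 4 members were called higher and 3 lower by edgeR, beside 37.1% and 35.8% of all genes. Replicates 2 and 3 were close to each other, for Ms4a7 at 431 and 448 CPM in positive cells and 40.9 and 41.7 CPM in negative cells. The p-values without replicate 1, for each gene, therefore measure only the small spread between these 2 pairs. Without replicate 2 or without replicate 3, edgeR called no member, and it called 0.917% of all genes higher and 1.18% lower without replicate 2 and 0% either way without replicate 3. An unadjusted p under 0.05 was reached by 4 members upward and 1 downward without replicate 2, beside 4453 of 14831 genes in either direction, and by 3 upward and 2 downward without replicate 3, beside 4209 of 14803 genes. Without replicate 2, DESeq2 called 3 higher (10.2% of all genes) and 1 lower (12.0%), and limma-voom called 1 higher (4.94% of all genes; 6.02% were lower). Without replicate 3, DESeq2 called 3 higher (9.98% of all genes) and 2 lower (11.8%), and limma-voom called 1 higher (3.70% of all genes; 4.18% were lower). With all libraries, DESeq2 called 4 higher (23.4% of all genes) and 2 lower (25.1%), and limma-voom 3 higher (20.6%) and 1 lower (19.5%).

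**Figure D3:**
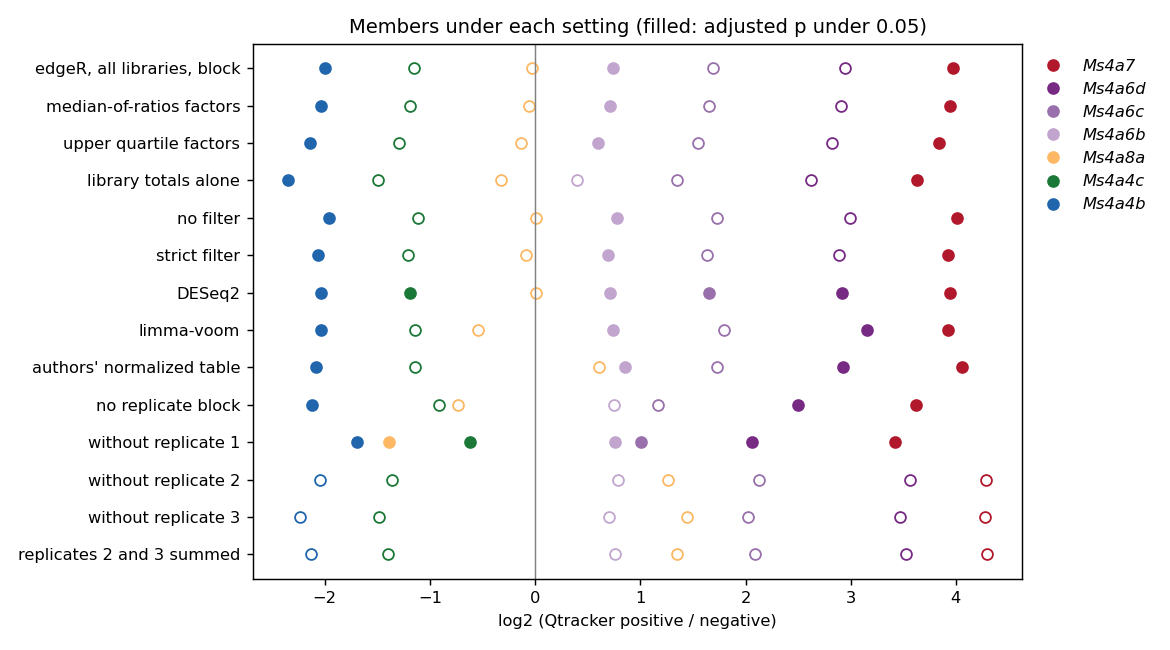
Log2 fold change of each member, Qtracker positive over negative, in the edgeR fit of all libraries with the replicate block (top row) and under 13 alternatives; filled points have an adjusted p under 0.05. Ms4a8a runs from -1.39 to 1.44, and each other member stays on its side of 0.

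Levels were compared between members per length, as RPKM (CPM divided by the length of the exons in kilobases). In Qtracker positive cells Ms4a6d came first at 279.7 ± 25.1 RPKM, and none of its libraries overlapped with Ms4a6c, next at 132 ± 67.2 RPKM (SD, n = 3 each). Ms4a7 followed at 81.0 ± 30.8 RPKM, in a range that overlapped with Ms4a6c, though Ms4a6c was above it in each of the 3 libraries. In CPM, without division by length, the order was the reverse. Ms4a7 had 202, 431 and 448 CPM and Ms4a6c 113, 331 and 367 CPM in positive replicates 1, 2 and 3. The ranges of Ms4a6b at 31.3 ± 18.1 and Ms4a4c at 27.0 ± 16.2 RPKM overlapped too, while within libraries Ms4a6b was above Ms4a4c, at 10.5 against 8.62, 40.1 against 33.0 and 43.4 against 39.3 RPKM in replicates 1, 2 and 3. Ms4a8a at 0.816 ± 0.111 and Ms4a4b at 0.239 ± 0.0362 RPKM were far below. In negative cells Ms4a6c (58.7 ± 45.6 RPKM), Ms4a4c (50.7 ± 9.17 RPKM) and Ms4a6d (49.6 ± 35.9 RPKM) overlapped and came first. They were followed by Ms4a6b at 18.7 ± 10.7, Ms4a7 at 6.60 ± 4.63, Ms4a8a at 1.35 ± 1.15 and Ms4a4b at 1.04 ± 0.570 RPKM. The length of Ms4a4b, 8780 bases over all its annotated exons, is long for the family, so its RPKM may be understated. Ms4a6b and Ms4a7, at 4485 and 4453 bases, are also longer than Ms4a6c at 2050 and Ms4a6d at 1735 bases. Their RPKM, and shares based on it, may be understated too.

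The make-up of the family signal differed in the same way. The RPKM of the 7 members summed to 376, 611 and 669 in Qtracker positive replicates 1, 2 and 3, against 63.6, 251 and 246 in negative replicates 1, 2 and 3. Ms4a6d made up 53.0 ± 12.9% of the sum in positive cells and 23.1 ± 9.01% in negative cells (SD, n = 3 each). Ms4a7 held 14.3 ± 1.98% in positive cells against 3.15 ± 1.02% in negative cells. Ms4a4c held 4.52 ± 1.95% in positive cells against 36.0 ± 23.4% in negative cells, and the value of negative replicate 1 alone was 63.0%. Ms4a6c took 22.6 ± 6.93% in positive cells and 26.1 ± 14.2% in negative cells, within the spread between replicates.

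**Figure D4:**
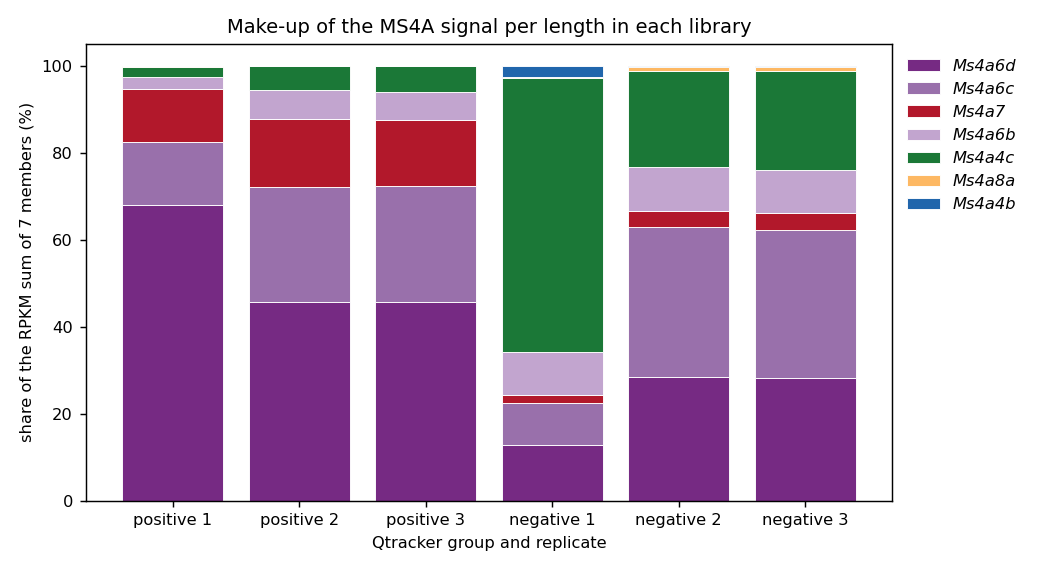
Share of each member in the summed RPKM of the 7 members (%), for the 3 Qtracker positive libraries on the left and the 3 negative ones on the right. Ms4a6d fills 45.6 to 67.9% of the positive bars and Ms4a4c 22.1 to 63.0% of the negative ones.

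The members span 537.4 kb of chromosome 19, 5 on the plus strand and 4 on the minus strand, among 19 family genes over 678.6 kb. Genes that were higher and genes that were lower lay side by side. Ms4a4c and Ms4a4b, both lower in all pairs, lie between Ms4a7 on one side and Ms4a6c and Ms4a6b on the other, all 3 of them higher in all pairs. Ms4a6d, higher in all pairs, lies next to Ms4a2, which was called lower. Ms4a7 and Ms4a1, on the same strand with Ms4a5 and Ms4a14 between them, had fitted values of 3.97 and -3.79 on the log2 scale.

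**Figure D5:**
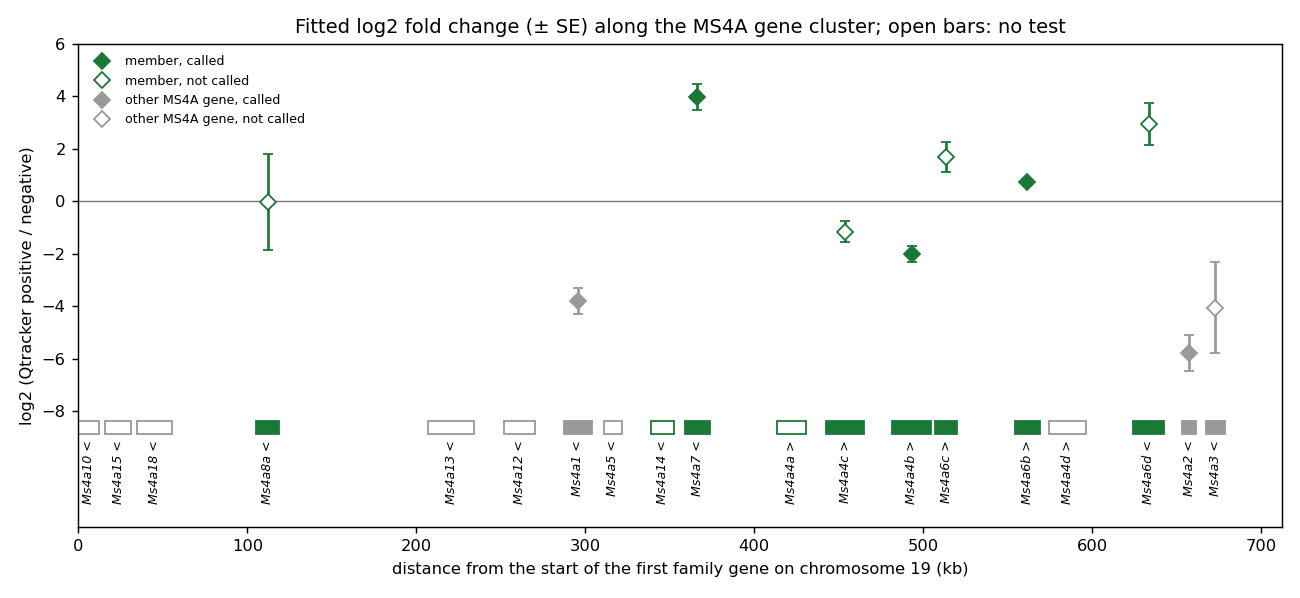
Fitted log2 fold change (Qtracker positive over negative, with SE) of MS4A genes against their distance along chromosome 19 from the start of the first family gene; boxes below mark the genes and their strand, green for the 9 members and open where no test was made. Genes above and below 0 lie beside each other along the cluster, and filled diamonds are the genes called.

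Ms4a1 and Ms4a2, the family genes of B cells and of mast cells and basophils, were lower in Qtracker positive cells. Of 13 further genes listed, among them the distant relatives Tmem176a and Tmem176b, 6 had a row and 5 were tested, of which 2 were called lower and 3 were not called. Ms4a1 had 17.6, 29.8 and 30.4 CPM in positive replicates 1, 2 and 3, against 565, 275 and 284 CPM in negative replicates 1, 2 and 3. Its log2 fold change was -3.79 ± 0.50 (SE; edgeR quasi-likelihood test, adjusted p 0.0170), and 8 of 10 other B cell markers were also called lower. Ms4a2 had 0, 6 and 12 counts in positive replicates 1, 2 and 3, against 76, 369 and 367 counts in negative replicates 1, 2 and 3, a log2 fold change of -5.77 ± 0.69 (SE; adjusted p 0.0147 by edgeR). All 8 markers of basophils and mast cells were called lower beside it, with sums of 12.1 to 26.3 CPM in positive libraries and 257 to 1400 CPM in negative ones. Both calls were lost without replicate 2 and without replicate 3 (adjusted p 0.0589 and 0.0680 for Ms4a1, 0.0701 and 0.0680 for Ms4a2).

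The remaining relatives were at or near the limit of the counts or were not called. Ms4a3, a gene of granulocyte and monocyte progenitors, had 0, 17 and 0 counts in Qtracker positive replicates 1, 2 and 3, against 34, 33 and 69 counts in negative replicates 1, 2 and 3, with a log2 fold change of -4.05 ± 1.74 (SE) and an adjusted p of 0.145 by edgeR. Its groups did not overlap, and DESeq2 called it lower (-5.87, adjusted p 0.00316). Ms4a4d had 0, 1 and 0 counts in positive replicates and 7, 5 and 2 counts in negative ones and was not tested. Tmem176a had 1.14, 19.6 and 19.4 CPM in positive replicates 1, 2 and 3, against 12.2, 18.6 and 18.6 CPM in negative replicates 1, 2 and 3, so it differed in pair 1 only. Its pair differences were -3.37, 0.07 and 0.05, and those of Tmem176b were -1.81, -0.01 and -0.12 on the log2 scale.

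The receptors and signalling proteins that MS4A proteins are known to accompany were listed as a group of 12, of which 11 were tested: 2 were higher in Qtracker positive cells, 3 were lower and 6 were not called. Of all genes tested, 18.5% were called higher and 16.3% lower. Clec7a, which encodes the beta-glucan receptor Dectin-1, a partner of MS4A4A in macrophages, averaged 42.0 ± 2.85 CPM in positive cells and 6.33 ± 3.56 CPM in negative cells (SD, n = 3 each). Its log2 fold change was 2.92 ± 0.51 (SE; adjusted p 0.0265 by edgeR). Trem2, a lipid receptor whose soluble form in human is linked genetically to the MS4A cluster, averaged 723 ± 57.7 CPM in positive cells and 63.0 ± 40.9 CPM in negative cells, with a log2 fold change of 3.82 ± 0.74 (SE; adjusted p 0.0317 by edgeR). Both were higher in all 3 pairs (36.7% of all genes were), with no overlap between the groups (30.0% of all genes). Both calls were lost without replicate 2 and without replicate 3. The adjusted p was then 0.0773 and 0.0719 for Clec7a and 0.0775 and 0.0843 for Trem2.

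The signalling genes downstream of these receptors were not called by edgeR with all libraries. Syk averaged 634 ± 68.5 CPM in Qtracker positive cells and 995 ± 269 CPM in negative cells, and Card9 109.9 ± 9.60 CPM in positive cells and 107 ± 67.9 CPM in negative cells (SD, n = 3 each). Tyrobp and Fcer1g, which encode the adaptor chains of TREM2 and Fc receptors, had log2 fold changes of 1.64 ± 0.73 and 2.02 ± 0.78 (SE; adjusted p 0.154 and 0.118 by edgeR), with pair 1 at 3.53 and 4.03 and the other pairs at 0.77 to 1.13. DESeq2 called both (1.61, adjusted p 0.0246, and 1.98, adjusted p 0.00715). Without replicate 1, edgeR called Tyrobp (0.80) and Fcer1g (1.13) higher, and Syk (-0.31, adjusted p 0.00143) and Card9 (-0.46, adjusted p 0.000797) lower. Syk was lower in all 3 pairs (36.0% of all genes were), with no overlap between the groups (29.4% of all genes). Lyn, a kinase of the IgE receptor, was nearly level at -0.04 ± 0.13 (SE). The mast cell genes of the list were lower: Kit, the stem cell factor receptor, had a log2 fold change of -3.49, and Fcer1a, the IgE-binding chain, one of -5.92 (adjusted p 0.0164 and 0.0102 by edgeR). Both are also among the 8 markers of basophils and mast cells given above.

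For the 3 members with the highest CPM, the genes with the most similar profile over the 6 libraries were found by the root mean square distance of centred log2 CPM, among 8610 genes. This is a description of 6 libraries that share groups and pairs. For Ms4a7 they were Abcc3, a transporter of organic anions (distance 0.17), C1qb, a chain of complement C1q made by macrophages (0.22), and Rab7b, a GTPase of late endosomes (0.23). For Ms4a6d they were P2ry6, the UDP receptor (0.08), Aph1c, a subunit of gamma-secretase (0.14), and Rnase4, a secreted ribonuclease (0.15). For Ms4a6c they were Arg2, the mitochondrial arginase (0.12), A530064D06Rik (0.17) and Tlr8, an endosomal RNA sensor (0.25). Distances between members were taken from Ms4a7, Ms4a6d and Ms4a6c to members with a mean log2 CPM of at least 3. That left out Ms4a4b and Ms4a8a. Among the members so compared, Ms4a6d and Ms4a7 were closest (0.58). Many other genes were nearer, as Ms4a7 had rank 124 of 8610 for Ms4a6d, and Ms4a6d rank 46 for Ms4a7. Ms4a6b and Ms4a6c were 0.78 apart, Ms4a6c and Ms4a6d 0.84, and Ms4a4c was far from Ms4a6c, Ms4a6d and Ms4a7 (1.82, 2.35 and 2.72).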

How the data were processed

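Estimated counts per gene were deposited as whole numbers for 6 libraries. FastQC, Salmon and mm10 are named in the submitters' processing notes, without versions, but no annotation release is. In the authors' deposited normalized table each signal is the count times a factor specific to gene and library, by an unstated formula. It served as an alternative (log2 with a pseudocount of 1). Genes were kept by filterByExpr (minimum count 10, total 15), scaled by TMM and tested with edgeR 4.0.16 (R 4.3.3) by the quasi-likelihood F test with replicate number as a block, Benjamini-Hochberg adjusted over 14605 genes and called under 0.05. All 7 members passed the filter. SE came from the F statistic. CPM used TMM-scaled totals, and pair differences a prior count of 2. RPKM used exon lengths of GENCODE M21, which also gave positions and filled 5210 missing symbols. Promoter sequences are RefSeq's (GRCm38.p6). Fits were tested on simulated data with 200 changed genes. These data had a capped spread and no replicate effect, so they do not show how the fits handle a replicate like replicate 1.

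The pairing follows the series' design text. Deviations of same-numbered libraries correlated at 0.2, 0.077 and 0.16. With a different number the largest correlations were -0.15, 0.12 and 0.15. The text names all members, the other MS4A genes, the listed partners, 3 similar genes for each of the 3 members with the highest CPM, and markers. Members and lists were chosen with earlier results of these data known. Itgam, Mmp8, Cd28, Cd4, Lck, Nkg7, Klre1 and the monocyte markers are named outside that rule, after their values were seen. Alternatives were DESeq2 1.42.0, limma-voom (limma 3.58.1), the normalized table, scaling by median-of-ratios, by upper quartile or by library totals alone, no filter or a strict one (in 3 libraries, 50 counts), dropping the replicate block, omitting any one replicate, and summing replicates 2 and 3. The plots use matplotlib 3.10.9.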

Additional observations from a re-analysis of the deposited data

How the results depend on the processing

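Ms4a7, Ms4a6d, Ms4a6c, Ms4a6b, Ms4a4c and Ms4a4b kept their direction under all 13 alternatives. Ms4a8a did not: its log2 fold change of -0.03 was 0.01 with no filter, 0.01 by DESeq2, 0.61 with the normalized table, 1.35 with replicates 2 and 3 summed, and -1.39 to 1.44 with one replicate left out (by DESeq2 and limma-voom, fits chosen after seeing the data, 1.55 and 0.36 without replicate 2, and 1.70 and 0.46 without replicate 3). The number of members called higher, 2, was 1 with library totals alone, 4 by DESeq2, 0 with replicates 2 and 3 summed and 0 to 4 with one replicate left out. The number called lower, 1, was 2 by DESeq2, 0 with replicates 2 and 3 summed and 0 to 3 with one replicate left out. With the replicates summed, 3 members higher and 2 lower had an unadjusted p under 0.05 by edgeR. Without replicate 3 these were also 3 and 2, where DESeq2 called 3 higher and 2 lower and limma-voom 1 higher. Over all genes, 2707 higher became 1572 with library totals alone, 0 with replicates summed (4488 genes of either direction at an unadjusted p under 0.05) and 0 to 5538 with one replicate left out. The 2384 lower became 3665 by DESeq2, 0 with replicates summed and 0 to 5352 with one left out. Without the replicate block, Ms4a6b lost its call (0.75, adjusted p 0.426) and Ms4a6d gained one (2.50, adjusted p 0.0415). No other member's call changed with the block. Library totals alone, upper quartile scaling and no filter moved the median of all genes to -0.36, -0.15 and -0.11. Among the partners and relatives, Tmem176a reversed without replicate 1 (0.07, in a range of -1.62 to 0.07 with one replicate left out), Card9 with library totals alone (-0.01) and without replicate 1 (range -0.46 to 0.84), and Lyn with no filter (0.00). The cause was not tested. With 3 libraries a group, of which replicate 1 lay apart, the spread between replicates limits these values, and for Ms4a8a, Ms4a3, Ms4a4d and Vsig4 low counts do as well.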
